A study of Mus musculus with 2 samples.

Results

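Enteroendocrine cells (EEC) and tuft cells are rare hormone-secreting and chemosensory cells of the intestinal epithelium, and their transcriptomes were compared here in jejunal crypts of mice that lack the microRNA miR-375. The members were the cells that the depositors' annotation calls EEC or Tuft. Of the 3275 cells kept, 152 were members, with 54 EEC and 40 tuft cells in replicate 1 and 20 EEC and 38 tuft cells in replicate 2. The 2 libraries shared 0 cell barcodes, and each came from 1 mouse. All animals were male, 12 months old and whole-body knockouts for miR-375 made with CRISPR/Cas9. Founders were FVB x B62J F1 embryos, the line was backcrossed for several generations to B6 albino mice, and the strain is labelled C57BL6/2J. Crypts were dissociated with Dispase I, and single cells were sequenced with 10x Genomics 3′ v2 chemistry, which counts unique molecular identifiers (UMIs, each standing for 1 captured transcript). No wild-type cell entered these comparisons, so each difference given is between cell types of the knockout and not an effect of the deletion. Expression of the microRNA itself was not analysed here, so its loss was not checked.

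Both cell types descend from crypt stem cells and are scattered singly among enterocytes and goblet cells. EEC package peptide hormones and serotonin into dense-core granules and release them in response to nutrients. The transcription factors Neurog3, Neurod1 and Insm1 direct their formation, and miR-375 is known as a microRNA of endocrine cells. Tuft cells carry a tuft of long microvilli, use a taste-type signalling cascade that ends in the cation channel Trpm5, and depend on the POU factor Pou2f3. They are known for making the cytokine Il25, leukotrienes, prostaglandins and acetylcholine in response to parasites and microbial metabolites.

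The labels were set beside 8 defining genes for each type. The study named its clusters by scores of known cell type markers in the same cells, so this is no independent check. The EEC markers took up 1.64% and 1.15% of all UMIs in the EEC of replicates 1 and 2 and 0.000484% and 0.000357% in tuft cells. The tuft markers took up 0.642% and 0.679% of UMIs in tuft cells and 0.00387% and 0.000928% in EEC, so the markers went with the labels in both libraries. In EEC of replicate 1, 22 of the 24 tuft-marker UMIs lay in 1 cell, which also held 427 EEC-marker UMIs. Markers of intraepithelial lymphocytes gave 274 UMIs in EEC of replicate 2, against 2 in EEC of replicate 1, and 268 of them lay in 3 of the 20 cells. Goblet markers made up more than 2% of UMIs in 5 EEC and 3 tuft cells. Values without all these cells are given wherever a call rests on them. Summed over cells, EEC gave 620638 and 215413 UMIs and tuft cells 413531 and 559907. The median UMI count per cell was 7399.5 and 9389.5 in EEC against 8630 and 13016.5 in tuft cells. The median mitochondrial share was 4.71% and 2.19% in EEC against 8.15% and 4.89% in tuft cells. Its part in the differences was not tested.

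UMIs were summed per library and cell type, and EEC were compared with tuft cells within the libraries by edgeR's quasi-likelihood test, fitted over 18 sums from 9 epithelial types. Levels are given as CPM, the usual counts-per-million scale on which each sum has the same total, first for replicate 1 and then for replicate 2. Of 6295 genes tested, 717 (11.4%) were higher in EEC and 709 (11.3%) were higher in tuft cells at an adjusted p under 0.05. The split was even, and the median log2 difference of EEC minus tuft over all genes tested was -0.05. Of the 1426 genes called, 1422 went the same way in both libraries. No UMI was found in tuft cells for 110 of the genes called, and none in EEC for 33. Because the cell types had been named from the expression of the same cells, these calls describe how far the classes stood apart and are not an independent test of the classes. Where 1 type had no UMI, the fold is a lower bound against 3 UMIs over both its libraries, which is 3.59 CPM in EEC and 3.08 CPM in tuft cells, and covers counting error only.

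**Figure D1:**
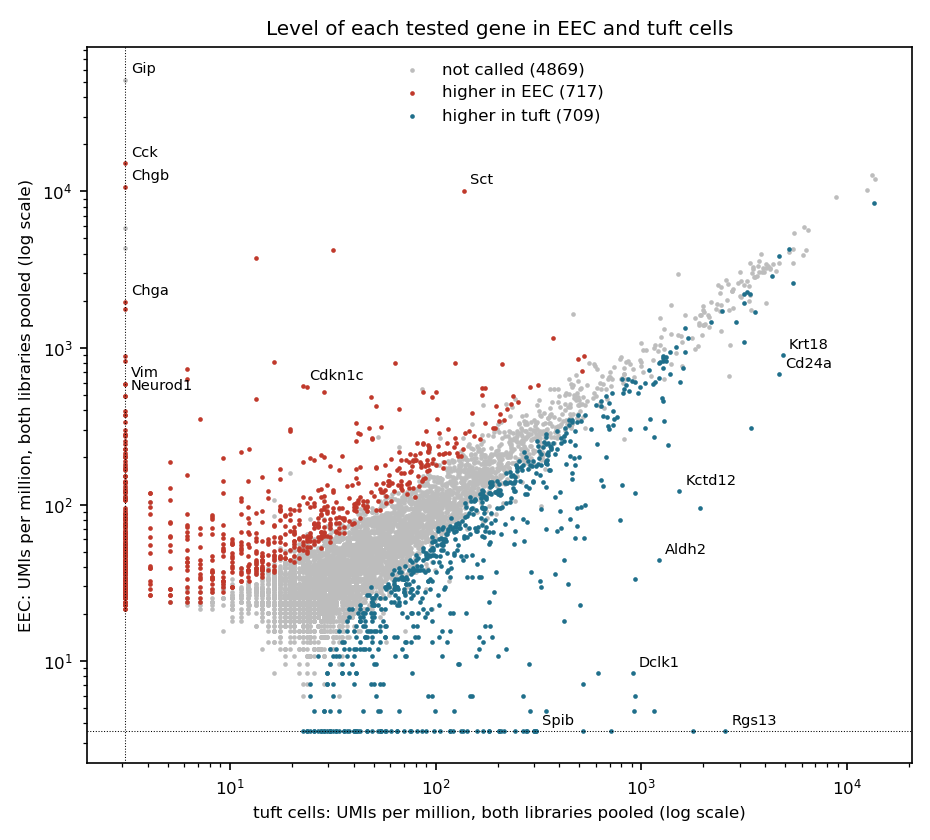
Each point is 1 of the 6295 genes tested, placed by its pooled CPM in tuft cells (x axis) and EEC (y axis), both on log scales. Genes with 3 UMIs or fewer in a type are drawn at its dotted line. The 717 genes higher in EEC and the 709 higher in tuft cells flank the diagonal. Cck, Chgb and Gip lie on the dotted line of tuft cells while Rgs13 and Spib lie on that of EEC.

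By fitted log2 difference, the 12 genes furthest toward EEC were Cck, Chgb, Tac1, Rbp4, Isl1, Vim, Neurod1, Scgn, Fev, Gfra3, Insm1 and Scg2, and none had a UMI in tuft cells. The fitted difference becomes very large where 1 type has no UMI, so this order favours such genes. Chga, with 1 UMI in the tuft sums, had rank 44. Rbp4, the plasma carrier of retinol, reached 893 and 617 CPM in EEC, at least 267-fold higher than in tuft cells. Gfra3, the receptor for the growth factor artemin, reached 230.4 and 501 CPM, at least 97.4-fold higher. Vim encodes the intermediate filament vimentin, best known from mesenchyme, and gave 596 and 576 CPM in EEC and 0 in both tuft sums (at least 192-fold, adjusted p = 8.87e-09). At least 1 UMI of Vim was found in 38.9% (25.9 to 53.1) and 35% (15.4 to 59.2) of EEC, with the exact 95% binomial (Clopper-Pearson) interval in parentheses here and for later shares of cells, which covers counting error only. In these EEC the 10 mesenchyme and endothelium markers together gave 606 and 576 CPM, so that Vim made up nearly all of it.

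The 12 genes furthest toward tuft cells by the same order were Rgs13, Tspan6, Pygl, Pik3r5, Spib, Ccdc109b, Hmx2, Nebl, Hmx3, Ptgs1, Pik3cg and Bmx. All were at 0 UMIs in EEC, which the order again favours. Rgs13, a brake on G protein signalling, reached 2375 and 2697 CPM in tuft cells, at least 713-fold higher. Pygl, the liver form of glycogen phosphorylase, reached 370.0 and 205 CPM (at least 76.7-fold higher). Pik3r5 and Pik3cg, the regulatory and catalytic subunits of the phosphoinositide kinase of leukocytes, reached 285 and 271 CPM for Pik3r5 and 145 and 129 CPM for Pik3cg. Both subunits of that enzyme were therefore read in tuft cells and neither in EEC. Ccdc109b, which encodes the MCUb subunit of the mitochondrial calcium uniporter, reached 264 and 229 CPM.

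**Figure D2:**
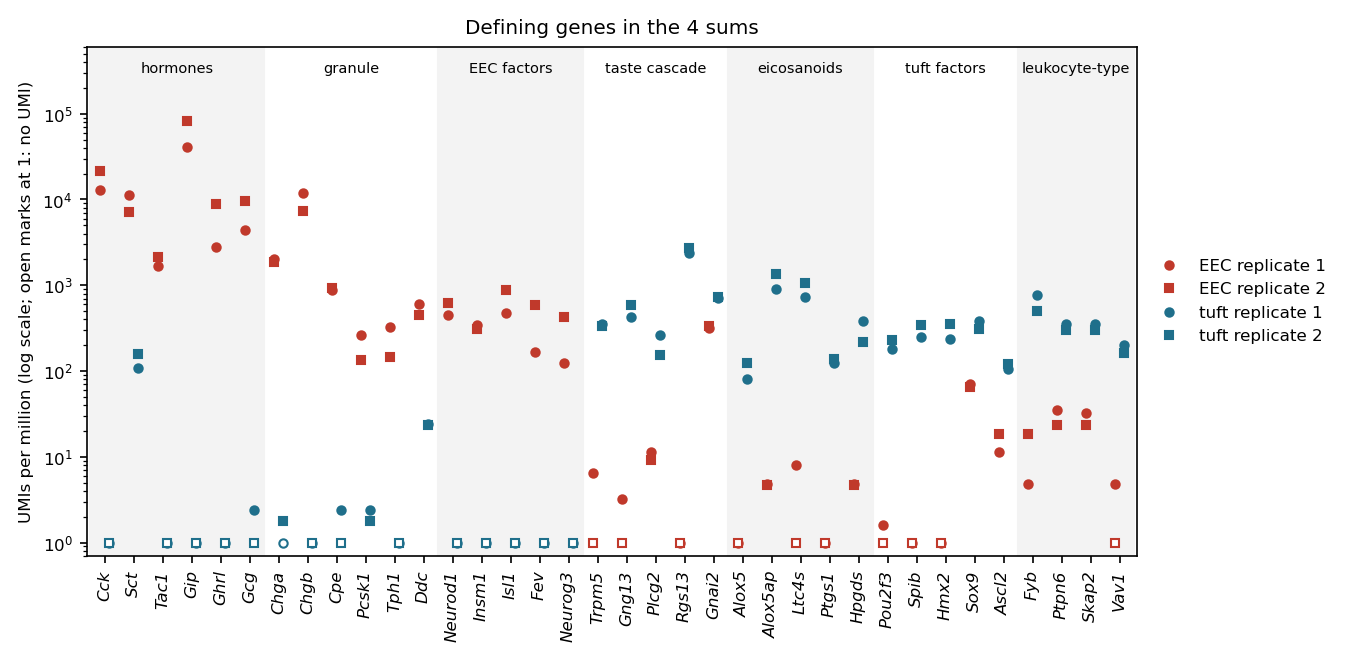
CPM of the defining genes of EEC and tuft cells, on a log scale, with 1 mark for each cell type and library and open marks at 1 for sums without a UMI. The EEC sums lie above the tuft sums for the hormone, granule and EEC factor genes and below them for the others, with the narrowest gap for Gnai2.

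Hormone transcripts were a large share of the RNA of EEC. The 17 hormone and peptide genes took 9.21% and 14.2% of all UMIs in EEC and 0.0121% and 0.0163% in tuft cells. Of the 10 tested, 6 were higher in EEC and 0 in tuft cells, against 11.4% and 11.3% of all genes tested. The median log2 difference of the 10 was 14.14, or 10.65 with genes without a UMI in 1 type set at their bound. Cck, the hormone that releases bile and pancreatic enzymes, gave 12882 and 21619 CPM in EEC and 0 in both tuft sums, at least 4910.4-fold higher in EEC (adjusted p = 0.0057). The gene lies at chr9:121489824-121495694 (GRCm38, minus strand). Chgb, a granin that forms the core of secretory granules, gave 11918 and 7256 CPM against 0 and 0 (at least 3477-fold, adjusted p = 0.00211). Tac1, the precursor of substance P and a product of enterochromaffin cells, gave 1659.6 and 2135 CPM against 0 and 0 (at least 578-fold, adjusted p = 2.72e-07). For all 3 the sums of the 2 types did not overlap.

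Gip, the incretin hormone of the upper intestine, gave 41045 and 82590.2 CPM in EEC and 0 in both tuft sums (at least 16792-fold higher). Ghrl, which encodes the appetite hormone ghrelin, gave 2787 and 8899 CPM against 0 and 0 (at least 1415-fold). Gcg, the precursor of glucagon-like peptides, gave 4445 and 9712 CPM against 2.42 and 0. None of these 3, nor Pyy, passed the test across the 18 sums (adjusted p = 0.118 for Gip, 0.0945 for Ghrl and 0.097 for Gcg), although no EEC and tuft sum overlapped. With only the 4 EEC and tuft sums in the fit, all 10 hormones passed, with adjusted p = 5.05e-19 for Gip. So few sums leave almost nothing from which to estimate a gene's own spread. These p-values therefore do not settle whether the hormones pass. The spread in the main fit is shared with the 7 other types. With each cell thinned to 5000 UMIs, 5 of the hormones passed in the fit over all types.

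Sct, the precursor of secretin, was read in tuft cells as well as in EEC. It gave 11132 and 7172 CPM in EEC and 109 and 159 CPM in tuft cells, a log2 difference of 6.11 ± 0.52 (SE, adjusted p = 3.03e-05). At least 1 UMI of Sct was found in 92.6% and 85% of EEC, in 52.5% (36.1 to 68.5) and 78.9% (62.7 to 90.4) of tuft cells and in 14.6% and 12.8% of enterocytes, given for comparison. Single enterocytes held 397 of their 711 Sct UMIs in replicate 1 and 270 of 330 in replicate 2. The part of free RNA in these shares was not tested. After thinning each cell to 5000 UMIs the shares were 92.5% and 80% of EEC, 38.5% (23.4 to 55.4) and 44.7% (28.6 to 61.7) of tuft cells and 4.73% and 6.28% of enterocytes, so the tuft share stayed above the enterocyte share at equal depth. Chga, a granin used to mark EEC, was found in 85.2% and 80% of EEC, 0% (0 to 8.81) and 2.63% (0.0666 to 13.8) of tuft cells and 19.1% and 20.4% of enterocytes. Before thinning, the enterocyte shares thus lay above the tuft intervals. Thinned to 5000 UMIs, the shares with a UMI of Chga were 73.6% and 55% of EEC, 0% (0 to 9.03) and 2.63% (0.0666 to 13.8) of tuft cells and 5.91% and 8.90% of enterocytes, so at equal depth the enterocyte shares lay inside the tuft intervals. In CPM Chga gave 2009 and 1880.1 in EEC against 0 and 1.79 in tuft cells, a ratio of 1923 with a 95% counting interval from 345 to 76018.

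Single EEC differed in the hormones they carried. With 10 or more UMIs taken as clear expression, Sct was carried by 36 of 54 EEC of replicate 1 and 13 of 20 of replicate 2, Cck by 20 and 8, Tac1 by 18 and 5, Gip by 15 and 6, Ghrl by 12 and 6, Gcg by 8 and 4 and Tph1, which makes serotonin, by 6 and 1. Each of these genes reached 10 UMIs in at most 3 of 931 enterocytes of replicate 1 and 1 of 382 of replicate 2. Sst was carried by 2 and 0 cells, Nts by 3 and 0 and Pyy by 1 and 2. Sct accompanied most of the others. It was present in 20 of 20 and 7 of 8 Cck cells, in 8 of 8 and 4 of 4 Gcg cells, in 15 of 15 and 5 of 6 Gip cells, in 9 of 12 and 5 of 6 Ghrl cells and in 8 of 18 and 2 of 5 Tac1 cells. Cck was present in 7 of 8 and 4 of 4 Gcg cells, in 9 of 15 and 3 of 6 Gip cells and in 9 of 12 and 3 of 6 Ghrl cells. Gip and Ghrl met in 1 and 0 cells, Tac1 and Gip in 2 and 0, and Cck and Tac1 in 1 and 0, while Tac1 met Gcg or Ghrl in 0 cells of either library. Of the 9 peptide hormones, 1 or more reached 10 UMIs in all but 5 of 54 and 1 of 20 EEC, and 2 cells in each library carried 5. Neurog3, the transient factor of EEC progenitors, reached 10 UMIs in 2 and 5 cells. These counts describe 74 cells of 2 mice, and cells of 1 mouse are not replicates.

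**Figure D3:**
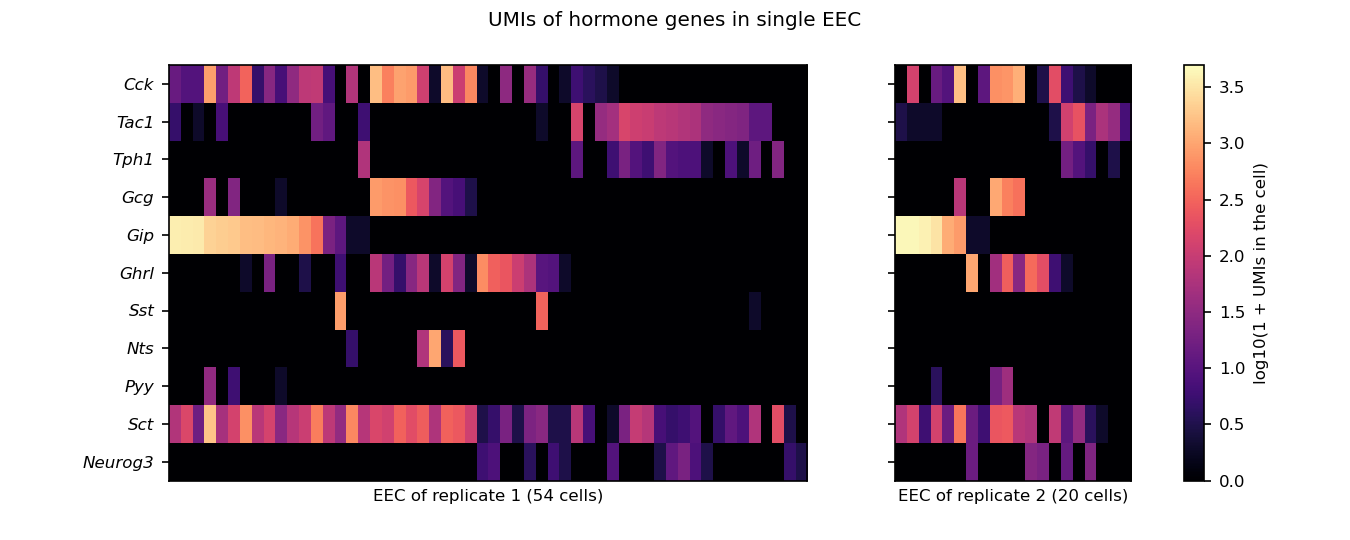
Each column is 1 EEC (54 of replicate 1 on the left, 20 of replicate 2 on the right), each line is 1 gene, and brightness is log10 of 1 plus the UMIs of that gene in the cell. Cells are ordered by their UMIs of Gip, then Gcg, Ghrl, Cck, Tac1, Sct and Neurog3, so that cells with the same hormone stand together by the sorting. In this order, cells with Gip, cells with Gcg and cells with Tac1 overlap little, Cck spans the Gip, Gcg and Ghrl cells, and Sct is bright in most cells.

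The granule and prohormone processing genes moved as a block. All 15 tested of the 18 listed were higher in EEC, with a median log2 difference of 9.05 (6.14 with bounds), against 11.4% of all genes tested. By DESeq2's Wald test on the same sums 9 of them passed. Scg2, a granin, gave 429 and 218 CPM against 0 and 0 (at least 121-fold, adjusted p = 3.97e-09). Tph1, the first enzyme of serotonin synthesis, gave 327 and 144 CPM against 0 and 0 (at least 90.8-fold), and Scgn, a calcium sensor of secretory cells, gave 305 and 580.3 CPM against 0 and 0 (at least 122-fold). These sums lay far apart in both mice. Cpe, which trims basic residues off prohormones, gave 881 and 919 CPM against 2.42 and 0, a ratio of 867 with a 95% counting interval from 155 to 34307. Ddc, the second enzyme of serotonin synthesis, was read in tuft cells as well. It gave 603 and 450.3 CPM in EEC and 24.2 and 23.2 in tuft cells, a log2 difference of 4.42 ± 0.31 (adjusted p = 1.86e-10).

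Of 23 EEC transcription factors tested, 20 were higher in EEC and 0 in tuft cells, against 11.4% and 11.3% of all genes tested. Neurod1 gave 445 and 622 CPM against 0 and 0 (at least 159-fold, adjusted p = 5.64e-09), Isl1, a LIM factor of hormone cells, 480.2 and 887 against 0 and 0 (at least 189.8-fold), and Insm1, a zinc-finger repressor, 343 and 311 against 0 and 0 (at least 109-fold). Fev, a factor of serotonin cells, gave 164 and 585 CPM and Neurog3 gave 124 and 427, both higher in replicate 2 and both at 0 in tuft cells. Foxa3, Gata6 and Sox4 did not pass. Sox4, a factor of secretory progenitors, gave 296 and 306 CPM in EEC and 474 and 389 in tuft cells (adjusted p = 0.252). With each cell thinned to 5000 UMIs, 13 of the factors passed.

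Of 12 nutrient and hormone receptors tested, 11 were higher in EEC, against 11.4% of all genes tested. Ffar1, a receptor for long-chain fatty acids, gave 118 and 121 CPM against 0 and 0 (at least 38.4-fold, adjusted p = 7.11e-06). Ffar2, a receptor for short-chain fatty acids, gave 158 and 199.6 CPM against 4.84 and 0. The irritant channel Trpa1, found in enterochromaffin cells, gave 67.7 and 23.2 CPM against 0 and 0 (at least 18.2-fold). Slc5a1, the sodium-glucose transporter through which EEC sense sugar, gave 121 and 111 CPM against 16.9 and 3.57, a log2 difference of 3.50 ± 0.56 (adjusted p = 0.000168). The exception was Ffar3, the other receptor for short-chain fatty acids. It gave 22.6 and 37.1 CPM in EEC and 77.4 and 78.6 in tuft cells, a log2 difference of -1.53 ± 0.54 (adjusted p = 0.0462), with the tuft sums above both EEC sums. This call was lost without the cells that carried markers of another type (adjusted p = 0.0658) and in 4 further settings. By DESeq2's Wald test 6 of the receptors were higher in EEC, and with cells thinned to 5000 UMIs 4 were.

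A list of regulated exocytosis and synaptic vesicle genes also held other genes, such as Celf3, Bex2 and Tubb3. Of its 15 tested genes, 12 were higher in EEC, against 11.4% of all genes tested. The vesicle fusion gene Snap25 gave 48.3 and 55.7 CPM against 0 and 0 (at least 16.3-fold), Syt13, a synaptotagmin, 103 and 69.6 against 0 and 0 (at least 30.7-fold), and Cplx2, a complexin that clamps fusion, 140.2 and 195 against 9.67 and 3.57 (log2 difference 4.70 ± 0.57, adjusted p = 1.09e-06). Rab27b, a GTPase of granule docking, went the other way, with 14.5 and 0 CPM in EEC and 140.3 and 83.9 in tuft cells (log2 difference -3.59 ± 0.41, adjusted p = 5.02e-07). Vamp2 and Rab3d did not pass, and Rab3d gave 145 and 227 CPM in EEC and 118 and 134 in tuft cells.

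The taste cascade was read mainly in tuft cells, where its 19 genes took 0.537% and 0.548% of UMIs against 0.0819% and 0.0752% in EEC. Of 12 tested, 9 were higher in tuft cells and 1 in EEC, against 11.3% and 11.4% of all genes tested. Gng13, the gamma subunit of the taste G protein, gave 430.4 and 589 CPM in tuft cells and 3.22 and 0 in EEC, a ratio of 218 with a 95% counting interval from 60.1 to 1806. Trpm5 gave 355 and 334 CPM in tuft cells and 6.44 and 0 in EEC, a log2 difference of -6.18 ± 0.49 (adjusted p = 5.69e-09). All 4 Trpm5 UMIs in EEC lay in 1 cell, the EEC that carried tuft markers. Sucnr1, the receptor for the metabolite succinate, gave 24.2 and 28.6 CPM against 0 and 0 in EEC (at least 7.44-fold, adjusted p = 0.0125). No EEC and tuft sums overlapped for these 3. Other G protein subunits varied. Gnai2 gave 711 and 738 CPM in tuft cells and 316 and 339 in EEC (log2 difference -1.20 ± 0.18, adjusted p = 2.07e-05), Gnb1 gave 249 and 261 in tuft cells against 234 and 302 in EEC (adjusted p = 0.956), and Gng2 went to EEC, with 29.0 and 55.7 CPM against 0 and 0 (at least 11.6-fold).

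Of 8 tested genes of eicosanoid synthesis, 6 were higher in tuft cells and 0 in EEC, against 11.3% and 11.4% of all genes tested. The leukotriene branch was led by Alox5ap, which presents arachidonic acid to 5-lipoxygenase, with 892 and 1339.5 CPM in tuft cells and 4.83 and 4.64 in EEC (log2 difference -7.79 ± 0.62, adjusted p = 1.09e-06). All 3 Alox5ap UMIs in EEC of replicate 1 lay in 1 cell. Alox5, the lipoxygenase itself, gave 79.8 and 123 CPM against 0 and 0 (at least 29.2-fold), and Ltc4s, the synthase of leukotriene C4, gave 735 and 1075 against 8.06 and 0. In the prostaglandin branch Ptgs1, a cyclooxygenase, gave 123 and 139 CPM against 0 and 0 (at least 36.9-fold). Hpgds, which makes prostaglandin D2, gave 379.7 and 219.7 CPM against 4.83 and 4.64 (log2 difference -6.05 ± 0.71, adjusted p = 3.02e-05). Pla2g4a, the phospholipase that frees arachidonic acid, gave 220.1 and 111 against 11.3 and 9.28. Lta4h and Ptges3 did not pass. Lta4h, the hydrolase of leukotriene A4, gave 33.9 and 26.8 CPM in tuft cells and 38.7 and 27.9 in EEC (adjusted p = 0.899), and Ptges3, a prostaglandin E synthase, gave 203 and 119.7 in tuft cells against 199.8 and 153 in EEC.

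Of 10 tuft transcription factors tested, 8 were higher in tuft cells and 2 in EEC, against 11.3% and 11.4% of all genes tested. Pou2f3 gave 181 and 229 CPM in tuft cells and 1.61 and 0 in EEC, a ratio of 174 with a 95% counting interval from 30.9 to 6919.9. Spib, an Ets factor shared with lymphoid and M cells, gave 251 and 346 CPM against 0 and 0 (at least 85.3-fold), Hmx2, a homeobox factor, 235 and 350.1 against 0 and 0 (at least 83.9-fold), and Gfi1b, a zinc-finger repressor, 41.1 and 42.9 against 0 and 0 (at least 11.7-fold). Sox9, a factor of crypt progenitors, was present in both types, with 387 and 311 CPM in tuft cells and 70.9 and 65.0 in EEC (log2 difference -2.38 ± 0.28, adjusted p = 8.92e-07). The EEC side held Bcl11a, a zinc-finger repressor, with 41.9 and 78.9 CPM in EEC and 14.5 and 8.93 in tuft cells (adjusted p = 0.00167), and Id2, an inhibitor of helix-loop-helix factors, with 179 and 130.0 CPM in EEC against 75.0 and 57.2 in tuft cells (adjusted p = 0.00159).

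Pou2f3 belongs to the factors that bind the octamer ATGCAAAT, so the promoters of the genes called were searched for it on both strands, the reverse strand reading ATTTGCAT. Promoter windows of 300 bases, from 250 before to 50 after the start site, were taken from RefSeq on GRCm38.p6. The octamer was held by 570 of 32851 promoters (1.74%). The other counts are of genes, and cover only those with a promoter under their symbol. Of these the octamer was held by 76 of 4912 tested (1.55%), by 17 of 571 higher in tuft cells (2.98%) and by 5 of 540 higher in EEC (0.926%). The counts are small, and a match describes letters and not binding. For comparison, the E-box CAGATG (reverse strand CATCTG), of the kind bound by helix-loop-helix factors such as Neurod1, was held by 17.2% of promoters. Over the same genes it was held by 12.6% of those tested, by 16.3% of those higher in tuft cells and by 13.5% of those higher in EEC. The 4 promoters shown belong to an eicosanoid enzyme, the succinate receptor, a B-cell adaptor and a cytokine receptor, all higher in tuft cells, with the octamer or its reverse in capitals and the strand of the gene given.
Hpgds (chr6:65144681-65144980, minus strand): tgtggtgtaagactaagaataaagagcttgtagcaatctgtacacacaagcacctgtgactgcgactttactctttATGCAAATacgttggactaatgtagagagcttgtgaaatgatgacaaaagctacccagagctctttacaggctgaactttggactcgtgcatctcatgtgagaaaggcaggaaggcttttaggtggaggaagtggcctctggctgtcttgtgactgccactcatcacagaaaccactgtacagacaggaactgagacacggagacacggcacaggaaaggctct
Sucnr1 (chr3:60081619-60081918, plus strand): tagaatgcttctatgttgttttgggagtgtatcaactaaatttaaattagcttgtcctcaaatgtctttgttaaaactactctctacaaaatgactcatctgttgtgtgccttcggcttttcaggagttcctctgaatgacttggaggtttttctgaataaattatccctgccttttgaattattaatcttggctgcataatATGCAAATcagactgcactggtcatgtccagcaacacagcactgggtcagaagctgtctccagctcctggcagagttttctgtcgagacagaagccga
Blnk (chr19:40994172-40994471, minus strand): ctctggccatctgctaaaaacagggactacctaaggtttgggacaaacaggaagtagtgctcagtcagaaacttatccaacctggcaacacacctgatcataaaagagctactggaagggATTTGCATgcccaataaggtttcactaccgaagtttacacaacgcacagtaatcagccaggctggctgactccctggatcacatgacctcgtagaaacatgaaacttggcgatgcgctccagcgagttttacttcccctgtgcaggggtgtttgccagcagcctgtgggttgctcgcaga
Il4ra (chr7:125552021-125552320, plus strand): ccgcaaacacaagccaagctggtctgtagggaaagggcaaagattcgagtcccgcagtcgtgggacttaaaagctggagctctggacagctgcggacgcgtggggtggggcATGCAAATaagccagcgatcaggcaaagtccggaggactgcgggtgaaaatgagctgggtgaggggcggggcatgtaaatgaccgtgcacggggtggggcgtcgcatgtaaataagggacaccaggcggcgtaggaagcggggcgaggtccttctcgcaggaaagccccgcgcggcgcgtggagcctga
The octamer began at -174 relative to the start site in Hpgds, at -48 in Sucnr1 and at -139 in Il4ra, and its reverse began at -130 in Blnk.

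The leukocyte-type signalling genes went largely to tuft cells. Of 14 tested, 13 were higher in tuft cells and 0 in EEC, against 11.3% of all genes tested. Fyb, an adaptor of T cells, gave 764 and 500.1 CPM in tuft cells and 4.83 and 18.6 in EEC (log2 difference -6.30 ± 0.42, adjusted p = 2.66e-10). Vav1, an exchange factor of blood cells, gave 203 and 164 against 4.83 and 0, and Siglecf, a lectin known from eosinophils, gave 87.1 and 139 against 3.22 and 0. The 8 markers of intraepithelial lymphocytes together gave 5 and 14 UMIs in the tuft sums, and the 10 markers of myeloid and B cells summed to 2.42 and 17.9 CPM.

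A list of tuft cytoskeleton and microvillus genes also held other tuft genes, such as Bmx, Kctd12, Aldh2 and Cd24a. Of its 22 tested genes, 19 were higher in tuft cells and 0 in EEC, against 11.3% and 11.4% of all genes tested. The list took 2.31% and 2.39% of UMIs in tuft cells and 0.588% and 0.542% in EEC. Krt18, a keratin of simple epithelia, gave 5003 and 4744 CPM in tuft cells and 906 and 891 in EEC (log2 difference -2.47 ± 0.21, adjusted p = 6.25e-09). Dclk1, the microtubule-linked kinase used to stain tuft cells, gave 1049.5 and 800.1 CPM against 11.3 and 0 (-6.85 ± 1.02, adjusted p = 0.00641). All 7 Dclk1 UMIs in EEC lay in the 1 EEC that carried tuft markers. Avil, which encodes the actin-bundling advillin, gave 599.7 and 466 CPM against 9.67 and 0. Krt8, the partner of Krt18, differed less, with 6258 and 4812 CPM against 2863 and 1908 (log2 difference -1.27 ± 0.21). Hepacam2, listed as a tuft gene, was read about equally in both types, with 469 and 429 CPM in tuft cells and 495 and 552 in EEC (adjusted p = 0.644).

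Of 13 cytokine and receptor genes only 4 had the counts to be tested. Il13ra1, through which tuft and other epithelial cells receive interleukin 13, gave 443 and 407 CPM in tuft cells and 20.9 and 9.28 in EEC (log2 difference -4.67 ± 0.30, adjusted p = 5.29e-11). Its partner Il4ra gave 50.8 and 41.1 CPM against 16.1 and 9.28 (log2 difference -1.70 ± 0.46, adjusted p = 0.00904). Il6ra, the receptor of interleukin 6, was the EEC member, with 61.2 and 78.9 CPM against 0 and 1.79 in tuft cells. Il25 was under the filter on low counts and was found in 15% (5.71 to 29.8) and 23.7% (11.4 to 40.2) of tuft cells and in 0 of the 74 EEC. Counting 3 cells as the limit of a 0, this allows a share of cells with a UMI of up to 5.56% and 15% of EEC, which does not limit the cells that express the gene. Thinned to 5000 UMIs, Il25 was left in 10.3% and 0% of tuft cells. Chat, the synthase of acetylcholine, was the only tested member of its list of 9 and gave 24.2 and 26.8 CPM in tuft cells against 0 and 0 in EEC (at least 7.16-fold, adjusted p = 0.0134).

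**Figure D4:**
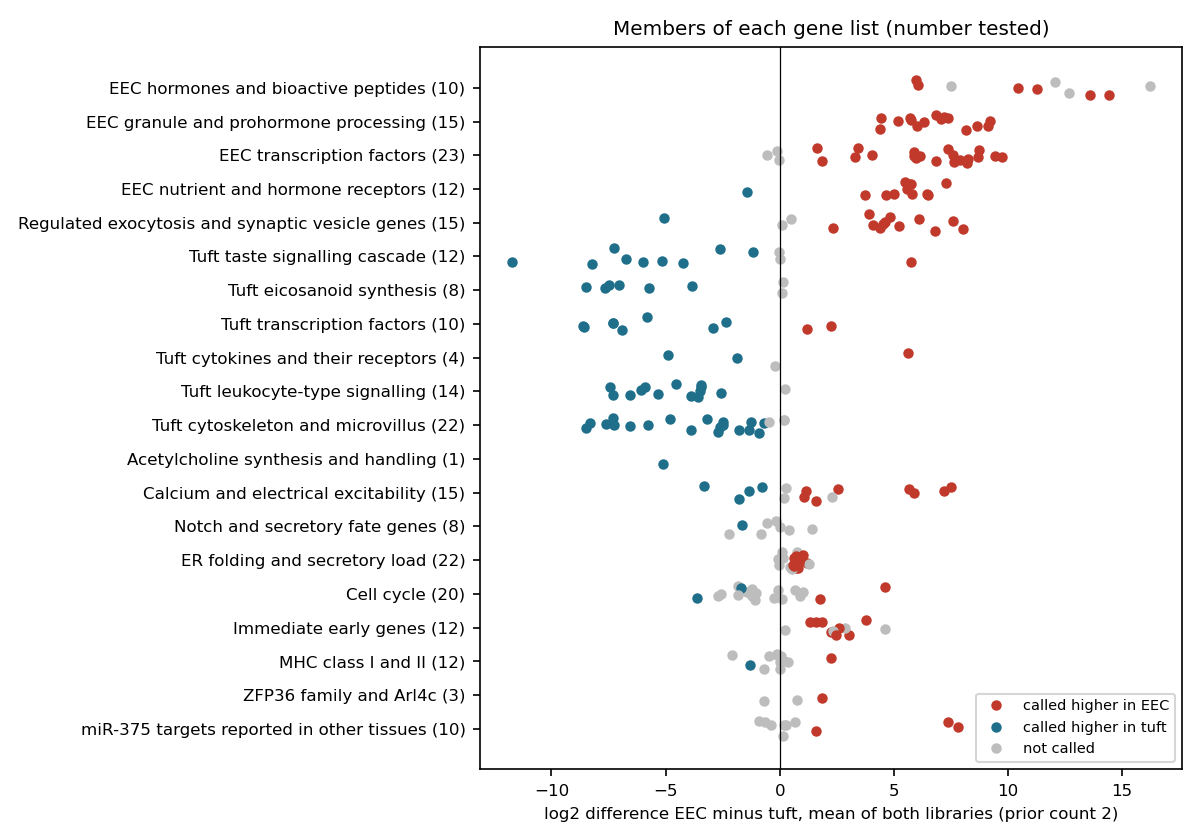
Each point is a tested gene, placed by the mean over both libraries of its log2 difference EEC minus tuft with a prior count of 2, in 1 row per gene list, and the number tested stands behind the list name. The hormone, granule and EEC factor rows lie mostly right of 0, the eicosanoid, leukocyte-type and cytoskeleton rows mostly left of it, and the Notch and MHC rows straddle it.

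Genes of excitability were split between the types. Of 15 tested genes of calcium handling and electrical activity, 8 were higher in EEC and 4 in tuft cells, against 11.4% and 11.3% of all genes. Cacna1a, the pore of P/Q-type calcium channels, gave 319 and 176 CPM in EEC and 72.5 and 21.4 in tuft cells (log2 difference 2.48 ± 0.41, adjusted p = 0.000286). Scn3a, a voltage-gated sodium channel, gave 180.5 and 69.6 CPM against 0 and 0 (at least 49.3-fold), and Cacna2d1, an auxiliary calcium channel subunit, 145 and 130.0 against 0 and 0 (at least 45.8-fold). On the tuft side stood Atp2a3, the calcium pump SERCA3, with 614 and 461 CPM in tuft cells and 67.7 and 41.8 in EEC (log2 difference -3.25 ± 0.25, adjusted p = 1.07e-09). The potassium channel Kcnq1 gave 126 and 111 CPM in tuft cells and 35.4 and 32.5 in EEC (adjusted p = 0.0432), a call lost without the cells that carried markers of another type (adjusted p = 0.0561). Calm2, which encodes the calcium sensor calmodulin, was higher in tuft cells, with 1330.0 and 1700.3 CPM against 609 and 613 in EEC (log2 difference -1.34 ± 0.17, adjusted p = 1.9e-06), while Calm3 gave 319 and 515 CPM in EEC and 251 and 439 in tuft cells (adjusted p = 0.506).

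Of 8 tested genes of Notch signalling and secretory fate, 0 were higher in EEC and 1 (12.5%) in tuft cells, near the 11.3% of all genes tested. It was Lfng, a glycosyltransferase that modifies Notch, with 41.1 and 55.4 CPM in tuft cells and 8.06 and 27.9 in EEC (log2 difference -1.65 ± 0.54, adjusted p = 0.0295). Its call was lost without cells over 10% mitochondrial reads or under 2000 genes (adjusted p = 0.102) and without the library as a block (adjusted p = 0.202). The Notch ligand Dll4 gave 37.1 and 46.4 CPM in EEC and 12.1 and 17.9 in tuft cells (adjusted p = 0.124, and 0.041 with only the EEC and tuft sums), and Prox1, a homeobox factor, gave 46.7 and 51.1 in EEC against 75.0 and 37.5 in tuft cells. Of 12 antigen presentation genes tested, H2-Q2 was higher in EEC and H2-D1 in tuft cells, 8.33% of the list each way. B2m, the light chain of class I molecules, gave 198 and 478 CPM in EEC and 184 and 498 in tuft cells, so that its values lay further apart between the mice than between the types.

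Protein folding and export genes leaned to EEC. Of 22 tested genes of the endoplasmic reticulum (ER), 14 were higher in EEC and 0 in tuft cells, against 11.4% and 11.3% of all genes. Their median log2 difference was 0.69, against -0.05 over all genes. The differences were small beside those of the lineage genes. Canx, a lectin chaperone, gave 314 and 209 CPM in EEC and 111 and 161 in tuft cells (log2 difference 0.91 ± 0.23, adjusted p = 0.00451), and Sec61b, a subunit of the translocon, gave 635 and 952 in EEC against 409 and 591 in tuft cells (log2 difference 0.64 ± 0.16, adjusted p = 0.0057). Hsp90b1 and Calr, the ER lumen chaperones GRP94 and calreticulin, did not pass. In other settings, 1 member passed without the library as a block and 8 passed with cells thinned to 5000 UMIs.

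Immediate early genes respond within minutes to stimuli and to handling of cells. Of 12 tested, 8 were higher in EEC and 0 in tuft cells, against 11.4% and 11.3% of all genes tested. Fos gave 441 and 385 CPM in EEC and 38.7 and 60.7 in tuft cells (log2 difference 2.99 ± 0.78, adjusted p = 0.0257), Btg2 879.7 and 576 in EEC against 133 and 118 in tuft cells (2.45 ± 0.43, adjusted p = 0.00231), and Junb 401 and 427 in EEC against 87.1 and 51.8 in tuft cells (2.58 ± 0.49, adjusted p = 0.00339). The EEC sums lay above the tuft sums for all 3. Jund, another member of the Jun family, gave 496 and 710.3 CPM in EEC and 421 and 572 in tuft cells (adjusted p = 0.4). The cells were dissociated by enzyme, and the mitochondrial share was lower in EEC than in tuft cells of each library, and the part of handling was not tested.

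Of 20 tested cell cycle genes, 2 (10%) were higher in each type, near the 11.4% and 11.3% of all genes tested. Cdkn1c, the inhibitor p57, gave 549 and 622 CPM in EEC and 24.2 and 21.4 in tuft cells (log2 difference 4.65 ± 0.54, adjusted p = 8.51e-05), and Cdkn1a, the inhibitor p21, gave 910.4 and 1894 in EEC against 472 and 302 in tuft cells (adjusted p = 0.0307). The call of Cdkn1a was lost with only the EEC and tuft sums (adjusted p = 0.23) and with no filter on low counts (adjusted p = 0.0602). Ube2c and Cdk1, which act in mitosis, were higher in tuft cells, with log2 differences of -1.65 ± 0.39 and -1.64 ± 0.50 (adjusted p = 0.00483 and 0.0207). Without cells over 10% mitochondrial reads or under 2000 genes, 9 cell cycle genes passed as higher in tuft cells. Without the cells that carried markers of another type, Cdk1 kept its call and Ube2c lost it, and without the library as a block Cdk1 lost its own (adjusted p = 0.155).

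EEC and tuft cells were next compared together with the 7 other epithelial types (3055 cells), in the same fit. Of 6295 genes, 1015 (16.1%) were higher in the mean of EEC and tuft cells and 993 (15.8%) were lower. That mean can be carried by 1 of the 2 types, so genes were sought whose 4 EEC and tuft sums all lay above the 14 other sums after scaling by the trimmed mean of M-values (TMM). There were 65 such genes (1.03%), and 20 (0.318%) lay below all 14. The sums chose these genes, so their differences from the other types are given as a description.

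**Figure D5:**
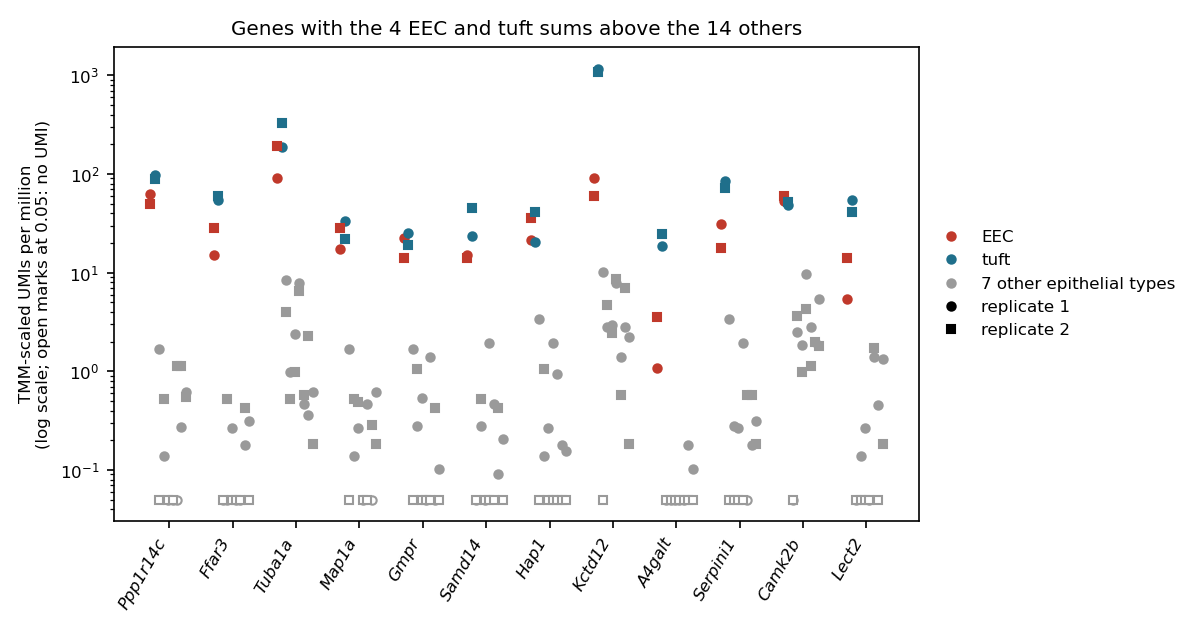
TMM-scaled CPM (log scale) of the 12 genes that separated EEC and tuft cells furthest from the other epithelial types, with 1 mark per cell type and library and open marks at 0.05 for sums without a UMI. For each gene the red EEC marks and blue tuft marks lie above all 14 grey marks, and for Kctd12 and A4galt the tuft marks lie above the EEC marks by the widest margins.

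Ppp1r14c, an inhibitor of protein phosphatase 1 (chr10:3366057-3464975, GRCm38, plus strand), stood furthest from the rest. It gave 62.4 and 49.8 scaled CPM in EEC, 97.8 and 88.2 in tuft cells and at most 1.68 in any other sum. The lowest of the 4 sums was 29.6 times the highest of the 14, and the log2 difference of the 2 types from the other 7 was 8.14 ± 0.37. EEC and tuft cells did not differ in it past the threshold (log2 difference -0.66 ± 0.37, adjusted p = 0.216). At least 1 UMI was found in 57.4% (43.2 to 70.8) and 50% (27.2 to 72.8) of EEC and 57.5% (40.9 to 73.0) and 78.9% (62.7 to 90.4) of tuft cells. Ffar3 came next, with 15.1 and 28.5 scaled CPM in EEC, 53.9 and 59.7 in tuft cells and at most 0.522 elsewhere. It was found in 14.8% (6.62 to 27.1) and 20% (5.73 to 43.7) of EEC, 52.5% (36.1 to 68.5) and 47.4% (31.0 to 64.2) of tuft cells and 0.537% and 0% of enterocytes. Thinned to 5000 UMIs, the shares for Ffar3 were 11.3% and 20% of EEC, 25.6% and 28.9% of tuft cells and 0.215% and 0% of enterocytes, and those for Ppp1r14c were 39.6% and 30%, 43.6% and 42.1% and 0.43% and 0.262%.

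Cytoskeletal genes known from neurons were among the 12. Tuba1a, an alpha-tubulin, gave 90.3 and 192 scaled CPM in EEC, 185 and 327 in tuft cells and at most 8.42 elsewhere. Map1a, a microtubule-associated protein of neurons, gave 17.2 and 28.5 in EEC, 33.7 and 21.7 in tuft cells and at most 1.68 elsewhere. The lowest of the 4 sums was 10.7 times the highest of the other 14 for Tuba1a and 10.2 times for Map1a, and Map1a did not differ between EEC and tuft cells past the threshold (adjusted p = 0.671). Hap1, the huntingtin-associated transport protein, gave 21.5 and 35.6 scaled CPM in EEC and 20.2 and 40.7 in tuft cells. Camk2b, a calcium-dependent kinase of synapses, was the most even of the 12, with 52.7 and 60.5 scaled CPM in EEC, 48.9 and 51.5 in tuft cells and at most 9.77 elsewhere (log2 difference EEC minus tuft 0.06 ± 0.39). Serpini1, a serine protease inhibitor of neurons, gave 31.2 and 17.8 in EEC and 84.3 and 71.9 in tuft cells, higher in tuft cells (adjusted p = 0.00932). This call of Serpini1 was lost with cells thinned to 5000 UMIs (adjusted p = 0.128) and without the block (adjusted p = 0.055). Kctd12, an auxiliary subunit of GABA-B receptors, was shared but unequal, with 91.4 and 60.5 scaled CPM in EEC, 1169.7 and 1068 in tuft cells and at most 10.1 elsewhere. The remaining genes of the 12 were Gmpr, Samd14, A4galt and Lect2, of which A4galt and Lect2 were higher in tuft cells. A4galt gave only 1.08 and 3.56 scaled CPM in EEC against 18.5 and 24.4 in tuft cells, so its place rests on very few EEC UMIs. Lect2 was also low in EEC, with 5.38 and 14.2 scaled CPM against 53.9 and 40.7 in tuft cells.

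The RNA-binding proteins of the Zfp36 family, which bind AU-rich elements and speed the decay of messenger RNA, were read in both types. Zfp36l2, a candidate target of miR-375 in the study, gave 111 and 130.0 CPM in EEC and 82.2 and 60.7 in tuft cells. The EEC sums lay above the tuft sums, and the log2 difference of 0.69 ± 0.30 did not pass (adjusted p = 0.107). With the Paneth sums left out of the fit it passed (log2 difference 0.70, adjusted p = 0.0336). Zfp36, which is also an immediate early gene, gave 179 and 135 CPM in EEC and 48.4 and 35.7 in tuft cells and was higher in EEC (log2 difference 1.93 ± 0.45, adjusted p = 0.00514). Zfp36l1 gave 25.8 and 18.6 CPM in EEC and 33.9 and 35.7 in tuft cells (adjusted p = 0.243). It was 1 of the 20 genes whose 4 EEC and tuft sums lay below all others, the highest of the 4 at 27.1 scaled CPM and the lowest of the 14 at 42.7 (log2 difference from the other types -1.61 ± 0.17). Cldn15, a pore-forming claudin, and Pigr, the receptor that carries immunoglobulin A across the epithelium, were low in both types in the same way. Pigr reached at most 661 scaled CPM in EEC or tuft cells and at least 778 in every other sum. Arl4c, the other candidate the study followed, gave 2 UMIs in EEC and 2 in tuft cells over both libraries and was not tested.

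The study's candidate targets of miR-375 were drawn from human cells, and 116 of them matched a mouse symbol. Of the 71 tested, 6 (8.45%) were higher in EEC and 9 (12.7%) in tuft cells, near the 11.4% and 11.3% of all genes tested. The widest differences were Clock, the circadian factor, with 88.6 and 83.6 CPM in EEC and 16.9 and 21.4 in tuft cells (log2 difference 2.07 ± 0.35), and Chd7, a chromatin remodeller, with 95.1 and 102 in EEC against 24.2 and 32.1 in tuft cells (1.78 ± 0.32). On the tuft side they were Ogg1, a DNA repair glycosylase, with 26.6 and 30.4 CPM in tuft cells and 1.61 and 13.9 in EEC (-2.41 ± 0.72), and Efnb2, an ephrin ligand, with 24.2 and 33.9 in tuft cells against 9.67 and 0 in EEC (-2.20 ± 0.58). With only the EEC and tuft sums in the fit Ogg1 and Efnb2 lost their calls (adjusted p = 0.0666 and 0.0849), and Ogg1 also did without the block (adjusted p = 0.0883). Of 10 tested genes known as miR-375 targets in other tissues, 3 were higher in EEC and 0 in tuft cells. Rasd1, a small GTPase, gave 180.5 and 162 CPM in EEC against 0 and 0 (at least 57.1-fold, adjusted p = 2.03e-07), Pax6, a factor of hormone cells, 216 and 255 against 0 and 1.79, and Igf1r, a growth factor receptor, 30.6 and 23.2 against 9.67 and 7.14 (adjusted p = 0.0404, lost at 0.0579 without the cells that carried markers of another type). Mtpn, Aifm1, Sp1, Klf5, Tcf12, Pafah1b1 and C1qbp did not pass.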

How the data were processed

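Per the labels and the study's methods, the authors aligned the reads of each library and counted UMIs with Cell Ranger 3.0.1 (10x reference mm10), corrected for free RNA with SoupX, kept cells with at least 1500 genes and at most 25% mitochondrial reads, removed doublets and annotated the cells with Seurat. The submitters' notes name Seurat 3.2.1 and the study's methods a later version. The deposited matrices hold UMI counts per gene and cell. The deposited annotation gives each cell's type and percent of mitochondrial reads, and the authors' doublet score came in a table of its own, by which all 3275 kept cells were singlets. The table with the cell order also holds 2937 cell columns of other series, which were not used. The annotation was joined to that table by order (UMI totals and gene numbers were equal for all 3275 cells) and counts were taken from the library matrices, whose totals per cell exceeded the annotation by at most 1.27%. Whether the free RNA correction reached the matrices is not given in the sources used here. A normalized copy of the counts was not used.

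Counts were summed per library and type (at least 10 cells per sum, 18 sums). EEC minus tuft, and the mean of both minus the unweighted mean of the other 7 types, were tested two-sided with edgeR 4.0.16 (filterByExpr, TMM, robust glmQLFit, glmQLFTest) in R 4.3.3, with the library as a block since both types of a library come from 1 mouse, and p-values were adjusted by Benjamini-Hochberg over 6295 genes with a threshold of 0.05. With 2 mice, the p-values rest on how the differences between types varied from library to library, over all types in the fit (8 residual degrees of freedom). The block takes out the mean difference between the libraries, so that difference does not enter the p-values. Fewer transcripts per cell and a different makeup of the sum cannot be told apart in CPM. Sums of EEC held 836051 UMIs and those of tuft cells 973438, and intervals and floors cover counting error only. Thinning drew 5000 UMIs per cell with a fixed seed. Alternatives were DESeq2 1.42.0, its size factors, no filter, no block, thinned cells, a stricter cell filter (at most 10% mitochondrial reads and at least 2000 genes), Paneth sums left out, only the EEC and tuft sums, and each library left out. The fit with only the EEC and tuft sums leaves little from which to estimate a gene's own spread, so its p-values are weak evidence. Leaving out cells with 5 or more UMIs of another type's markers or over 2% goblet UMIs was chosen after seeing the data. The members and gene lists were chosen with earlier results of these data known. Named from each list were up to 6 tested genes with the largest change in each direction and up to 3 with the highest level, over all genes the 12 furthest each way with at least 50 CPM in the higher type, and for the shared genes the 12 with the largest smallest ratio. Sct, Chga, Il25, Sst, Nts, Pyy, Foxa3, Gata6, Vamp2, Mtpn, Blnk, Cldn15 and Pigr were named outside this rule and were chosen after their values were seen. Promoters and positions come from RefSeq and the GRCm38 annotation. Gene symbols are those of the matrices. Some genes that the naming rule selects are not reported here.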

Additional observations from a re-analysis of the deposited data

Results flagged for a closer look

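Among the barcodes that the authors left out, some carried the markers of EEC or tuft cells. With at least 12 UMIs of the 8 EEC markers, there were 9 such barcodes of 5583 in replicate 1 and 2 of 58 in replicate 2. With at least 12 UMIs of the tuft markers there were 22 in replicate 1 and 0 in replicate 2. These barcodes entered no comparison, and no control sample was at hand to set a level for them. Of the 9 EEC-marker barcodes of replicate 1, 7 had under 1500 genes and 5 had over 25% mitochondrial reads, the limits the authors set. Of the 22 tuft-marker barcodes, 8 had under 1500 genes and 10 had over 25% mitochondrial reads, and their median mitochondrial share was 22.6%. The median UMI count was 1498 in the EEC-marker barcodes of replicate 1. Whether these barcodes were EEC or tuft cells was not tested, and neither was how far the shares in replicate 1 depend on that filter. The part of doublet removal in the rest was not tested.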

How the results depend on the processing

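No gene called as reported was called in the opposite direction in any alternative, and with every other choice kept the counts of genes higher in EEC and in tuft cells stayed within 1.5 times of 717 and 709 except as follows. Without the library as a block, 483 genes were higher in EEC and 342 in tuft cells, with 818 of the 1426 calls shared, and for EEC and tuft cells against the other types 703 were higher and 461 lower. Lfng, Serpini1, Ogg1, Cdk1, Kcnq1, Ffar3, Igf1r, Krt8, H2-D1, Lect2, Tuba1a and Laptm4b were among the named genes that lost their call there. Same-numbered sums come from the same mouse, which is why the block stands in the main fit. With cells thinned to 5000 UMIs, 453 and 485 genes passed between EEC and tuft cells, and 629 and 569 against the other types. That setting keeps fewer UMIs and tested 3255 genes. The thinned shares of cells with a UMI also fell, to 55% for Chga in EEC of replicate 2 (80% as reported), to 74.4% and 71.1% for Trpm5 in tuft cells (92.5% and 97.4%) and to 61.5% and 73.7% for Pou2f3 (80% and 94.7%). Larger falls included those of Il25 in tuft cells of replicate 2, from 23.7% to 0%, and of Ffar3 in tuft cells, from 52.5% and 47.4% to 25.6% and 28.9%. The tuft shares of Sct and Ppp1r14c fell as well, as given above. By DESeq2's Wald test 704 and 657 genes passed, with 1297 of the 1426 calls shared, and Alox5, Bmx, Chat, Dclk1, Hmx2, Hmx3, Plcb2, Siglecf, Sucnr1, Fev, Scg2, Tph1, Trpa1 and Snap25 were among the named genes that did not. Without the cells that carried markers of another type, 725 and 650 genes passed and 1270 of the 1426 calls were shared. Of the named genes called, Ffar3, Igf1r, Kcnq1, Ube2c and Zdhhc17 lost their call there. Over 191 differences of named genes and 11 alternatives, 1909 of 2028 comparisons kept their direction and, where calls could be made, their side of the threshold. Another 60 lost and 33 gained a call, and 26 values that were not called did not keep their direction, however small the change. With 1 library left out, 1 sum per type remained, so counts of calls could not be made and only the direction of the differences was compared. The depth of 20 EEC in replicate 2 limits what can be said of rare hormones, and genes under the filter, such as Arl4c, were not resolved.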

Other observations

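Nuclear genes of mitochondrial respiration, grouped by gene name after the data were seen, leaned to tuft cells. Of 73 tested subunit genes of the respiratory chain and ATP synthase, 31 were higher in tuft cells and 0 in EEC, with a median log2 difference of EEC minus tuft of -0.43. They took 3.78% and 3.80% of UMIs in EEC and 4.75% and 5.84% in tuft cells. The 12 tested genes of the mitochondrial genome gave 0 calls in either direction, with a median log2 difference of -0.32. The 75 tested genes of cytosolic ribosomal proteins gave 6 calls higher in tuft cells, under the 11.3% of all genes tested, and 0 higher in EEC, with a median log2 difference of -0.29. Hormone transcripts fill part of the EEC sums, and their part in these small shifts was not tested.

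Of 8 enterocyte markers 4 were tested, and 2 of them were higher in EEC and 0 in tuft cells, against 11.4% and 11.3% of all genes tested. The 2 were Sis, the brush border sucrase-isomaltase, and Rbp2, a retinol-binding protein of absorptive cells, and Fabp1 and Fabp2 did not pass. The 8 enterocyte markers summed to 2391 and 1239 CPM in EEC and 655 and 1497 CPM in tuft cells, so the order of the types turned between the libraries.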
